A study of Mus musculus with 6 samples.

Results

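The mitochondrial ribosomal protein genes (Mrpl and Mrps) were described in motor neurons (MNs) made from mouse embryonic stem cells, 76 genes of the 34433 gene symbols measured. They were taken by name alone: every symbol made of Mrpl or Mrps, a number and at most one letter a to c. A symbol with several entries was represented by the entry of highest level. Of the 76, 47 were Mrpl and 29 were Mrps genes, and all 76 passed a minimum of 1 FPKM in either genotype, as did 15784 genes in all. FPKM counts fragments per kilobase of transcript and scales them to the mapped reads of the library, so levels of different genes can be set side by side.

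RNA was sequenced from Hb9 control MNs (SMN2+/+;mSmn+/+ in the study's description, wildtype in its labels) and A2 SMA MNs (SMN2+/+;mSmn-/-), 3 samples of each, on an FVB/N background. Both lines carry the human SMN2 transgene and eGFP driven by the HB9 promoter. Both received 1 µM retinoic acid and 1 µM Smoothened agonist for 5 days, and live eGFP-positive cells were sorted. Each genotype was 1 stem cell line, so genotype and line cannot be told apart. The deposited table gives 1 pooled FPKM value per genotype, with no value of single samples and no read counts. The spread between samples could therefore not be computed. The table's own test columns were not used, and every ratio below is a description of the pooled values, with no test.

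The mitochondrial ribosome translates the few messages of the mitochondrial genome, all of which encode inner membrane subunits of oxidative phosphorylation. Its 2 rRNAs are transcribed from mitochondrial DNA, whereas its proteins are encoded in the nucleus, made on cytosolic ribosomes and imported. Some of these proteins descend from bacterial ribosomal proteins, and others were added in the mitochondrial lineage. Motor neurons depend on mitochondrial ATP along their long axons, and SMA is the disease in which loss of SMN leads to loss of these cells.

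The targeted gene, Smn1, was at 137 FPKM in the control and 5.26 FPKM in the SMA cells (log2 ratio -4.70, A2 SMA over Hb9 control). Cell markers also differed with genotype. All 8 neuronal markers of the list above the minimum were lower by at least 1.5-fold in A2 SMA MNs, and their levels summed to 1482 FPKM in the control and 144 FPKM in the SMA cells. Of 5 motor neuron markers, 4 were lower, and the 5 summed to 199 and 51.9 FPKM. Among the lower ones, Isl1 was at 108 and 5.95 FPKM and Lhx3 at 27.6 and 0.348 FPKM. The remaining marker, Mnx1, which encodes Hb9, was at 41.2 and 44.2 FPKM. All 10 pluripotency markers were higher, summing to 305 and 1954 FPKM. Of 10 proliferation markers, 3 were higher, or 6 relative to the median gene, and none lower (1288 and 1664 FPKM summed). Of 8 fibroblast markers, 1 was higher and 6 were lower (68.8 and 35.6 FPKM), and all 6 glial markers above the minimum were lower (103 and 33.7 FPKM). No marker measured was at 0, Tubb3, Map2 and Slc18a3 were not analysed here, and Gfap and Aqp4 were under the minimum in both genotypes. The part of these markers in the results on the Mrpl and Mrps genes was not tested. In bulk RNA, fewer cells of a type and less RNA per cell cannot be told apart.

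As a group, the 76 genes had nearly the same FPKM in both genotypes before any rescaling. Summed over the family, the level was 4373 FPKM in the control and 4358 FPKM in the SMA cells, a difference of -0.338%. The sum includes Mrpl15, which rose from 118 to 240 FPKM. Relative to the median gene the family was higher in A2 SMA MNs, with a median log2 ratio of 0.24. The median member was at 47.6 FPKM in Hb9 control and 44.8 FPKM in A2 SMA MNs, against 18.5 and 13.4 FPKM for the median of all genes above the minimum. The quartiles of the members were 29.4 and 69.9 FPKM in Hb9 control MNs and 32.1 and 66.9 FPKM in A2 SMA MNs. Levels spanned 2.55 to 208 FPKM in Hb9 control and 0.949 to 245 FPKM in A2 SMA MNs. Most members lay between 10 and 100 FPKM, 59 in Hb9 control and 65 in A2 SMA MNs. Above 100 FPKM were 11 members in Hb9 control and 7 in A2 SMA MNs, and under 10 FPKM were 6 and 4. The order of the members was much the same in both genotypes (Spearman rho 0.940 and Pearson r of log2 FPKM 0.959 over 76 genes of the same pooled libraries, as a description). The mean level of a member and its log2 ratio were nearly unrelated (Spearman rho 0.055 over the same 76 genes).

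**Figure D1:**
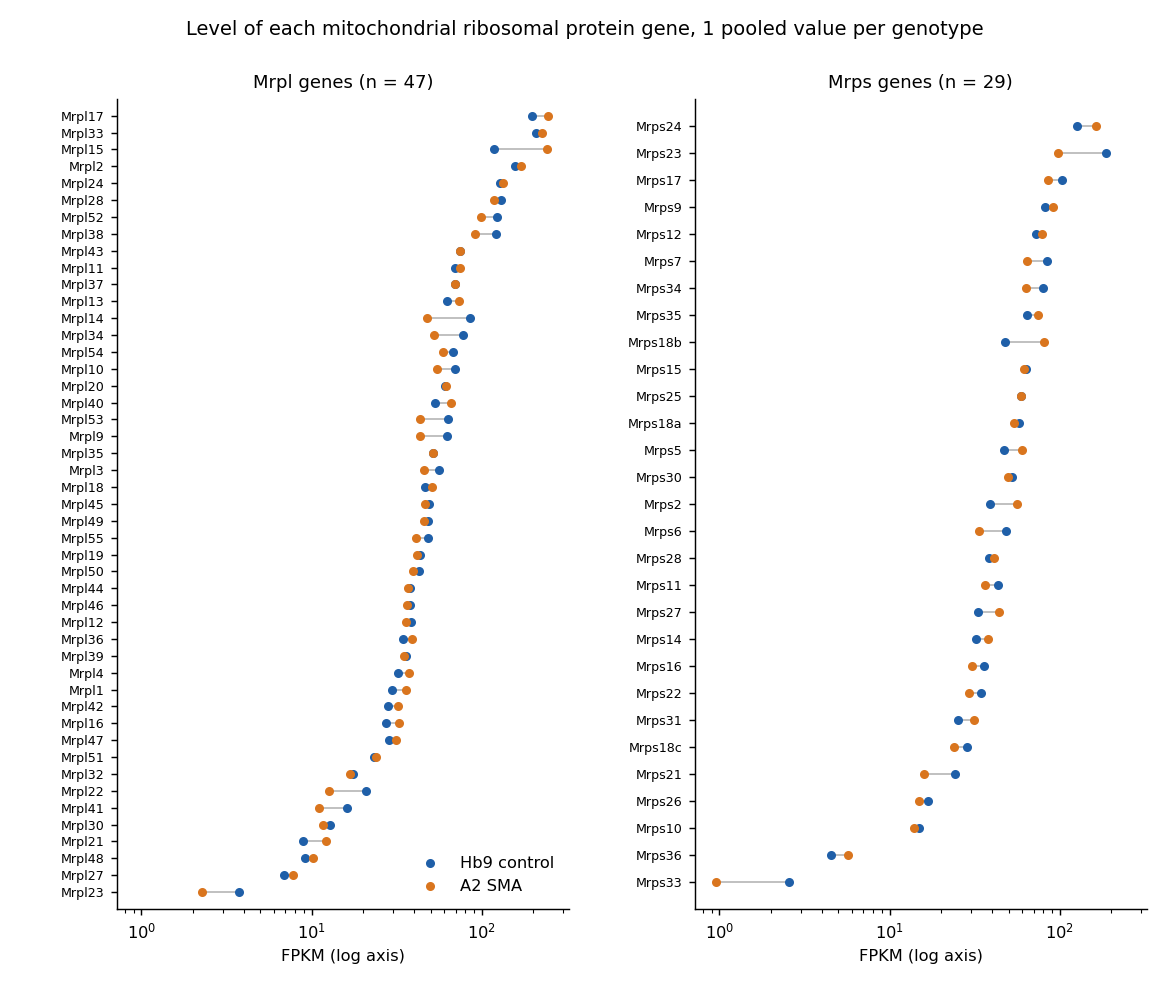
FPKM of each of the 47 Mrpl genes (left) and 29 Mrps genes (right) on a log axis, with 1 pooled value for Hb9 control MNs (blue) and 1 for A2 SMA MNs (orange) and no error bars because no values of single samples were given. The 2 values of most genes lie close together, while Mrpl15, Mrps18b, Mrps23, Mrpl14 and Mrps33 show wider gaps.

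The most abundant members came from both subunits. Mrpl17, a protein near the exit of the peptide tunnel, had 197 FPKM in Hb9 control and 245 FPKM in A2 SMA MNs. Mrpl33, a small protein of bacterial descent in the large subunit, had 208 and 225 FPKM. Mrpl2, a core protein near the peptidyl transferase centre, had 156 and 170 FPKM. These entries rest on wide loci, 111 kb for Mrpl17, 488 kb for Mrpl33 and 416 kb for Mrpl2, each of which overlaps other entries of the table. The Mrpl33 locus also carries the name of Bre, and for Mrpl2 the authors' software marked its estimate as failed. Mrpl24, which sits at the tunnel exit, had 127 and 132 FPKM. Mrpl28, another large subunit protein of bacterial descent, had 130 and 118 FPKM. Mrps24, a small subunit protein of the mRNA entry side, had 126 and 162 FPKM on a locus named jointly with Urgcp. The remaining members among the 8 highest means, Mrpl15 and Mrps23, are described with the highest and lowest ratios. The 8 highest members in each genotype held 28.7% of the summed FPKM in Hb9 control and 31.9% in A2 SMA MNs.

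The log2 ratio of A2 SMA over Hb9 control had a median of -0.04 over the 76 members (quartiles -0.26 and 0.18) and of -0.29 over all 15784 genes (quartiles -0.89 and 0.19). After centring on the median gene the members' median was 0.24, so the direction for the family turned with the scaling. Without centring, 34 members (44.7%) were above 0, against 34.1% of all genes, and 42 were below, against 65.9% of all genes. With centring 60 members (78.9%) were above 0, against 50% of all genes by construction. The members are more abundant than the median gene. Among genes with at least 10 FPKM in both genotypes, the median was -0.05 over 70 members and -0.18 over 8500 genes. These medians lay closer together than those over all genes above the minimum. The spread of the ratios across the members (SD 0.38) was narrower than across all genes (SD 1.22). This was also so among genes with at least 10 FPKM in both genotypes, where 70 members had an SD of 0.34 and 8500 genes an SD of 0.67. A narrow spread was not particular to the members. Among lists described below, the SD was 0.27 for assembly and rRNA modification and 0.33 for mitochondrial tRNA charging. It was 0.47 for oxidative phosphorylation subunits and 0.51 for cytosolic ribosomal proteins. Within 1.1-fold lay 27 members, 35.5% against 14.5% of all genes. Within 1.2-fold lay 46 members, 60.5% against 26.6% of all genes. These differences could not be tested from pooled values.

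**Figure D2:**
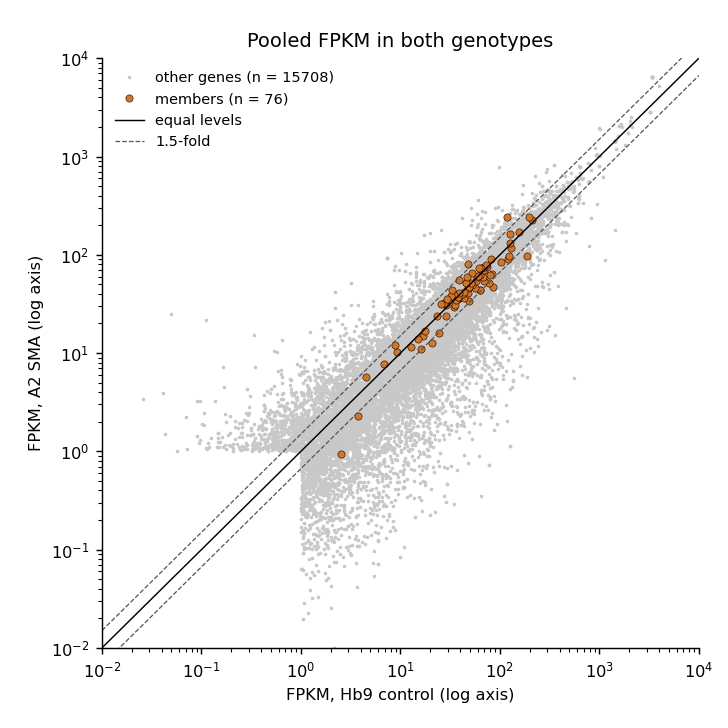
Pooled FPKM in Hb9 control MNs (x) against A2 SMA MNs (y), both on log axes, for the 76 members (orange) and 15708 other genes above the minimum (grey), with a solid line at equal levels and dashed lines at 1.5-fold. The members sit near the line of equal levels, with a median log2 ratio of -0.04 that becomes 0.24 after centring on the median gene.

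At a limit of 1.5-fold, 2 members were higher in A2 SMA MNs, 2.63% of the 76, where 12.6% of all genes were. At the same limit 6 members were lower, 7.89%, where 35.2% of all genes were. The remaining 68 members, 89.5%, lay within the limit, against 52.2% of all genes. Among genes with at least 10 FPKM in both genotypes, 2 of the 70 members were higher (8.15% of all such genes) and 4 were lower (23.5%). At 2-fold, 1 member was higher (6.78% of all genes) and 1 was lower (22.2% of all genes). Relative to the median gene, 11 members were higher by at least 1.5-fold (20.6% of all genes) and 2 were lower (25.4% of all genes). The share of members past the limit was below that of all genes in each direction and on both scales.

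Mrpl15 had the highest ratio. This protein of the large subunit core, of bacterial descent, was at 118 FPKM in the control and 240 FPKM in the SMA cells (log2 ratio 1.03). Its entry on chromosome 1 (NCBI m37, 4763287 to 4775822) overlapped no other entry. Mrps18b was next, with 47.3 and 80.6 FPKM and a log2 ratio of 0.77, on a locus that overlaps 3 other entries. It is one of 3 mammalian relatives of a single bacterial small subunit protein, and they differed in ratio. Mrps18a, which occupies the large subunit, had 57.3 and 54.0 FPKM (-0.09), and Mrps18c, on the small subunit, had 28.4 and 23.8 FPKM (-0.26). Centring on the median gene brought these log2 ratios to 0.20 and 0.03, so their direction turned, while Mrps18b was higher on both scales.

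After Mrpl15 and Mrps18b, 6 members followed that were higher by less than 1.5-fold without centring. Mrps2, a small subunit protein of bacterial descent, had 38.6 and 55.9 FPKM, just under the limit (log2 ratio 0.53). Mrpl21, of the large subunit core, had 8.87 and 12.1 FPKM (0.45). Mrps27, a pentatricopeptide repeat protein of the small subunit, had 33.0 and 43.7 FPKM (0.41). Mrps24 had a log2 ratio of 0.36, and Mrps5, which lines the mRNA channel of the small subunit, had 47.1 and 59.8 FPKM (0.34). Mrps36, with 4.53 and 5.72 FPKM (0.34), keeps its ribosomal name but is now known as a component of the 2-oxoglutarate dehydrogenase complex. Of the 8 highest ratios, 6 belonged to Mrps genes. All 8 were higher by at least 1.5-fold relative to the median gene. As a set, the Mrps genes did not have the higher median. Before centring, the 29 Mrps genes had a median log2 ratio of -0.08, with 13 above 0. The 47 Mrpl genes had a median of -0.04, with 21 above 0. The Mrps ratios spread more widely (SD 0.45 against 0.34). Relative to the median gene, 7 Mrps genes were higher by at least 1.5-fold and 2 lower, against 4 and 0 Mrpl genes.

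The lowest ratio was that of Mrps33, a small subunit protein added in mitochondria, which was also the least abundant member, with 2.55 FPKM in Hb9 control and 0.949 FPKM in A2 SMA MNs (log2 ratio -1.43). Mrps23, another added small subunit protein, was among the most abundant, with 186 and 97.7 FPKM (-0.93). Both were lower by at least 1.5-fold on either scale. Mrpl14, a large subunit protein at the interface with the small subunit, had 85.2 and 47.4 FPKM (-0.85). Mrpl22 and Mrpl23, which border the peptide tunnel, had 20.8 and 12.7 FPKM (-0.71) and 3.76 and 2.26 FPKM (-0.73). Mrps21 narrowly passed 1.5-fold with 24.3 and 16.0 FPKM (-0.61). Next, and short of 1.5-fold, came Mrpl34, with 77.7 and 52.1 FPKM (-0.58), and Mrpl53, with 63.5 and 43.4 FPKM (-0.55), whose entry is shared with Ccdc142. With a pseudocount of 1 FPKM, Mrpl23 (-0.54) and Mrps21 (-0.58) no longer passed 1.5-fold, and Mrps33 was at -0.87. Relative to the median gene these 8 members remained below 0, and only Mrps33 and Mrps23 stayed past 1.5-fold.

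**Figure D3:**
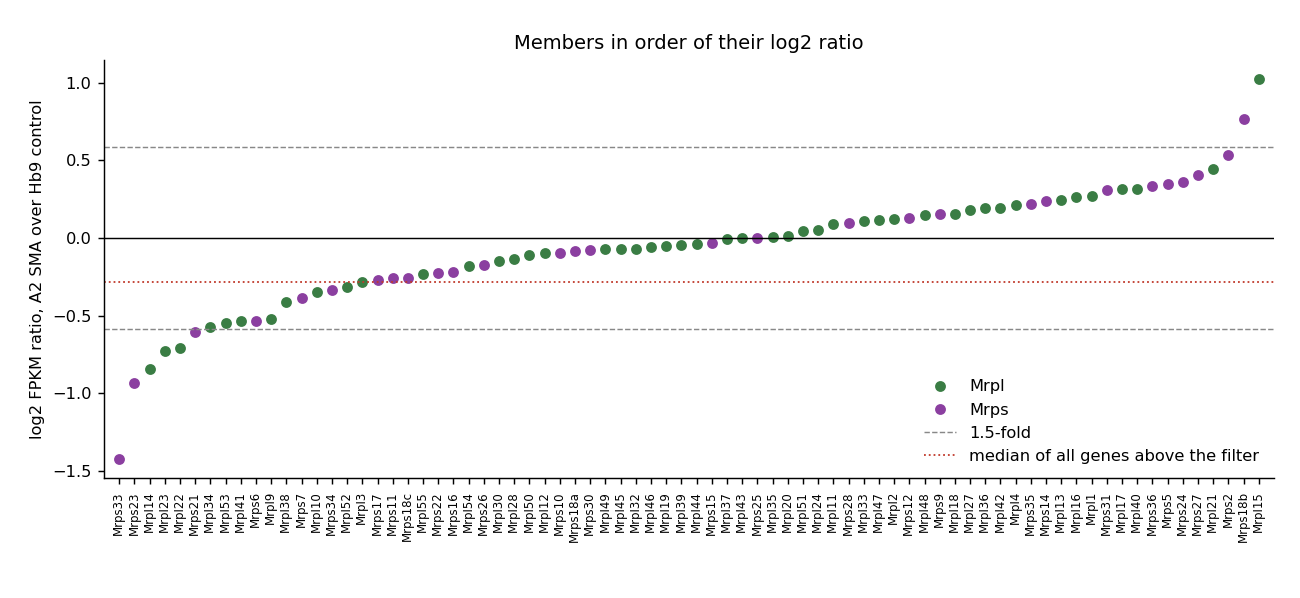
Log2 FPKM ratio of A2 SMA over Hb9 control for the 76 members in order, Mrpl in green and Mrps in purple, with dashed lines at 1.5-fold and a dotted line at the median of all 15784 genes, -0.29. Between the dashed lines lie 68 of 76 members, and 60 of 76 lie above the dotted line although 34 lie above 0.

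Mrpl23 needs care, since Mrpl23-ps1, by its name a pseudogene copy, had more signal than the gene. Its 2 entries were at 51.2 and 38.8 FPKM and at 37.4 and 29.5 FPKM (log2 ratios -0.40 and -0.34). How the authors' mapping divided reads between the copies was not tested, so the level of Mrpl23 is uncertain. Mrpl48, at 9.18 and 10.2 FPKM, likewise has a copy, Mrpl48-ps, at 24.9 and 21.5 FPKM. Mrps28 had 4 entries, with log2 ratios of 0.10, 0.11, -0.20 and 0.00, and Mrps31 had 2, at 0.31 and 0.56. In all 6 members sat on loci that carry further symbols, and 36 loci overlapped another entry of the table.

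By role, no group stood far from 0. The 29 large subunit proteins with a bacterial counterpart had a median log2 ratio of 0.05 and a summed level of 1882 FPKM in Hb9 control and 2002 FPKM in A2 SMA MNs, and 17 were above 0. The 20 large subunit proteins added in mitochondria had a median of -0.07 with 1058 and 964 FPKM summed, and 4 of them were above 0. None of these 20 passed 1.5-fold, where 12.6% of all genes were higher and 35.2% lower. After centring 1 did, Mrpl40, where 20.6% of all genes were higher and 25.4% lower. Mrpl40 had the highest ratio of the 20 (0.31), and Mrpl53 had the lowest. The 16 small subunit proteins with a bacterial counterpart had a median of -0.06, with 7 above 0. The 10 added small subunit proteins had a median of -0.09, with 5 above 0, but the widest spread (SD 0.65), as they held Mrps18b as well as Mrps23 and Mrps33. Relative to the median gene the medians of these groups were 0.34, 0.21, 0.22 and 0.20, so the direction turned for all but the first. The counts above 0 were then 23, 16, 13 and 7, against 17, 4, 7 and 5 before centring, when 34.1% of all genes were above 0.

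Proteins with a particular task were followed one by one. The stalk, which recruits the elongation factors, is built on Mrpl10 and Mrpl11 and carries copies of Mrpl12. Mrpl10 had 69.5 and 54.6 FPKM (log2 ratio -0.35), Mrpl11 70.0 and 74.4 FPKM (0.09) and Mrpl12 38.2 and 35.7 FPKM (-0.10). Mrps12, a protein of the decoding centre, had 72.3 and 78.8 FPKM (0.13). Mrpl32, which is matured by the m-AAA protease before assembly, had 17.6 and 16.7 FPKM (-0.07). None of these 5 was past 1.5-fold before centring. Centring turned Mrpl12 and Mrpl32 above 0 and brought Mrpl10 to -0.06, the nearest of them to 0.

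At the tunnel exit, Mrpl45, which faces the inner membrane where products are inserted, had 48.9 and 46.6 FPKM (-0.07). Its neighbour Mrpl44 had 38.1 FPKM in Hb9 control MNs and a log2 ratio of -0.04. The 8 proteins around the exit ranged from -0.73 (Mrpl23) to 0.31 (Mrpl17), with a median of -0.04 that became 0.24 after centring. On the small subunit, Mrps22 had 34.3 and 29.3 FPKM (-0.23) and Mrps34, whose locus is shared with Nme3, had 79.6 and 63.0 FPKM (-0.34). Centring turned the direction of Mrps22 and left Mrps34 below 0.

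The rest of the translation system was described from lists of known members. Their counts past 1.5-fold stand beside 12.6% of all genes higher and 35.2% lower, or 20.6% and 25.4% relative to the median gene. Of 7 further mitoribosome proteins, 1 was higher by at least 1.5-fold and none was lower (median -0.07), or 2 and none relative to the median gene. The higher one was Ptcd3, at 36.6 and 62.7 FPKM (0.78), an RNA-binding small subunit protein whose estimate was marked as failed. Dap3, a GTP-binding small subunit protein, had 144 and 153 FPKM, and Ict1, the codon-independent release factor built into the large subunit, had 150 and 113 FPKM. Of 15 translation factors listed, 14 were analysed, all above the minimum, and of these 1 was higher and 3 were lower (median -0.32). Relative to the median gene 2 were higher and 1 was lower, so the balance turned with the scaling. The higher one was Lrpprc, which stabilises mitochondrial mRNAs, at 54.7 and 99.5 FPKM with a failed mark. The lower ones were Guf1, the mitochondrial back-translocase, at 33.4 and 16.3 FPKM (-1.03), Taco1, an activator of Cox1 translation (-0.87), and Mrrf, the ribosome recycling factor (-0.62), the last pair named after their values were seen.

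Assembly factors and rRNA-modifying enzymes showed none past the limit among 24 of 25 listed (median -0.13), but 2 higher and none lower relative to the median gene. They ranged from Dhx30, an RNA helicase of mitochondrial RNA granules (151 and 102 FPKM, -0.57), to Fastkd2, which binds mitochondrial rRNA (35.1 and 47.6 FPKM, 0.44). Among the 18 genes that charge mitochondrial tRNAs the median was 0.02, with none higher and Wars2, the tryptophan enzyme, lower (7.26 and 4.03 FPKM, -0.85). With centring 1 was higher and none lower. Of 9 genes listed for mitochondrial DNA transcription and replication, 8 were analysed and 6 were above the minimum. Of these 6, Polg2, the accessory polymerase subunit, was lower (14.6 and 7.90 FPKM, -0.88) and none was higher. Relative to the median gene 1 was higher and 1 lower. Tfam, which packages and transcribes that DNA, had 85.9 and 116 FPKM (0.44). Relative to the median gene, the medians of these lists from the mitoribosome proteins to the DNA factors were 0.22, -0.04, 0.16, 0.30 and 0.17.

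The ribosomal RNAs themselves could not be separated. Both mt-Rnr1 and mt-Rnr2 lay on 1 entry with mt-Nd1, mt-Nd2 and 6 tRNAs, which had 3385 FPKM in Hb9 control and 6375 FPKM in A2 SMA MNs (0.91). The entry that holds 9 of the protein-coding genes had 1425 and 1427 FPKM (0.00). That of mt-Cytb had 1568 and 2067 FPKM (0.40) and that of mt-Nd6 643 and 785 FPKM (0.29). The level of the rRNAs apart from these neighbours is therefore not known.

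Of 11 transcriptional regulators of nuclear genes for mitochondrial proteins, 2 were higher and 1 was lower (median -0.02), with 5 above 0. Relative to the median gene 4 were higher and 1 lower, with a median of 0.27 and 8 above 0, so the direction turned. Pprc1, a coactivator linked to growth, had a log2 ratio of 0.78 from 56.6 FPKM in Hb9 control MNs, and Gabpa, the DNA-binding subunit of the ETS factor GABP, had 54.5 and 90.1 FPKM (0.73). Ppargc1a, the coactivator of mitochondrial biogenesis, was low in both, with 1.97 and 0.267 FPKM (-2.88). Nrf1 had 66.9 and 82.5 FPKM (0.30) and Yy1 had 78.9 and 78.1 FPKM (-0.02). The counts of this paragraph stand beside 12.6% of all genes higher and 35.2% lower, or 20.6% and 25.4% relative to the median gene. Cytosolic ribosomal proteins, measured for 82 genes, had a median of 0.14 with 12 higher and 5 lower. Before centring, their share higher was close to that of all genes and their share lower was below it. The 87 oxidative phosphorylation subunits above the minimum of 92 had a median of -0.20 with 3 higher and 13 lower, and 16 were above 0. After centring, the cytosolic list had a median of 0.43 with 27 higher and 2 lower. The oxidative phosphorylation list then had a median of 0.08 with 6 higher, 4 lower and 58 above 0, so its direction and its balance of calls turned.

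**Figure D4:**
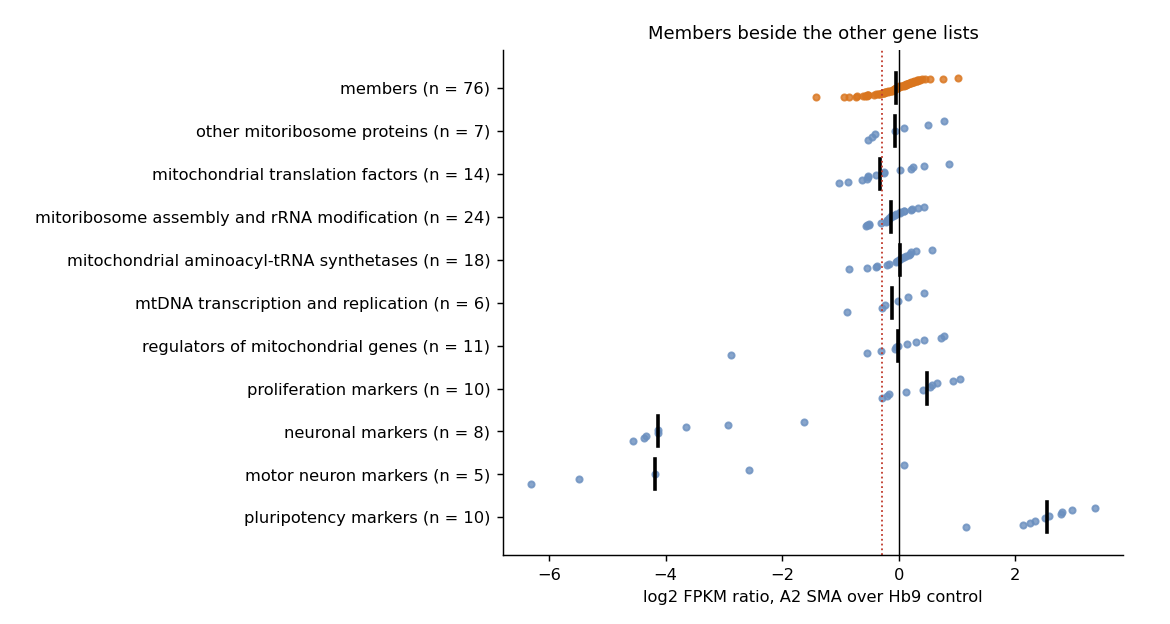
Log2 FPKM ratio of A2 SMA over Hb9 control for the 76 members (orange) and the genes of 10 other lists (blue), 1 point per gene spread vertically for sight, with a black bar at each list's median and a dotted line at the median of all genes, -0.29. The medians of the members and of the mitochondrial translation lists lie between -0.32 and 0.02 before centring, whereas those of the neuronal, motor neuron and pluripotency markers lie at -4.13, -4.18 and 2.54.

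Sequences before the transcription starts were available for 67 of the 76 members (RefSeq, GRCm38.p6, a later build than that of the table). Mrpl4, Mrpl13, Mrpl15, Mrpl19, Mrpl38, Mrpl54, Mrps28, Mrps34 and Mrps35 had no entry. The window ran from 250 bases before to 50 after the annotated start. It was searched on both strands for GCATGCGC, the core of the NRF1 site, for CCGGAAG, an ETS site as bound by GABP, and for AAGATGGCG, a YY1 site, none of which contains another. The ETS letters were in 24 members, 35.8% against 9.93% of 27025 genes with a promoter. The NRF1 letters were in 8, 11.9% against 3.05%, and the YY1 letters in 8, 11.9% against 1.64%. At least 1 of the 3 was in 34 members, 50.7% against 13.6%. The comparison set includes genes of every kind, silent ones too, and the members' median GC content was 58.0% against 52.8%. Before centring, members with the ETS letters had a median log2 ratio of -0.13 and those without of -0.04. For the NRF1 letters the medians were -0.06 with and -0.04 without, and for the YY1 letters 0.10 with and -0.07 without. With any of the motifs the median was -0.06, and without it was -0.04. A match is a description of the letters, not of binding.

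Of the 6 members lower by at least 1.5-fold, 4 held the ETS letters in the whole window, in 3 of them only after the start, and so did Mrps18b, the higher member with an entry, after its start. The stretches before the start of members described above are given 5′ to 3′ on the gene's strand, with any match in capitals. Distances are from the RefSeq start, which was also the first base of a GENCODE M21 transcript for 22 of the 67 members, while 64 windows held such a start somewhere, so the sides of the start are approximate. In Mrpl22 an ETS match begins 53 and an NRF1 match 33 bases before the start. In Mrps18b an NRF1 match begins 223 bases before the start, and in Mrps27 an ETS match 48 bases before. Matches after the start are not printed: an NRF1 and an ETS match in Mrps18b, a YY1 match in Mrps27 and an ETS match in Mrps23. Mrps23 and Mrpl14, the lower members of highest level, have no match in the stretch shown.
Mrpl22 (chr11:58171544-58171663, + strand): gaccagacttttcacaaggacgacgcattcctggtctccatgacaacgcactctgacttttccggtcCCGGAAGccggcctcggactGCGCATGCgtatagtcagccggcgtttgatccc
Mrps18b (chr17:35916441-35916690, - strand): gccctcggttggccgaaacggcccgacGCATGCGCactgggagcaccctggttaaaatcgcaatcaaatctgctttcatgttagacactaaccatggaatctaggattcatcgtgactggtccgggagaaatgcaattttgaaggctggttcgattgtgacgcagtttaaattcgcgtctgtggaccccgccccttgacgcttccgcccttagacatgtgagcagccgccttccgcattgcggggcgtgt
Mrps27 (chr13:99344679-99344785, + strand): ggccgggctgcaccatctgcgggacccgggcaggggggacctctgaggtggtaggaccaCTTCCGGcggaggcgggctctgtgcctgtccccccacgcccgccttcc
Mrps23 (chr11:88204268-88204387, + strand): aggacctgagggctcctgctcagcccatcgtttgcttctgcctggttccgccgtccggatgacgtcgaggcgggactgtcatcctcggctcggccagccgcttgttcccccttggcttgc
Mrpl14 (chr17:45686229-45686348, + strand): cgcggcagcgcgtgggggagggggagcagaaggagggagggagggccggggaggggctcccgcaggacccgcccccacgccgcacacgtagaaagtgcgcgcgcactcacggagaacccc

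Some members had a closely spaced neighbour. For 25 of the 67, 37.3%, a gene on the opposite strand started within 1000 bases and pointed away, against 12.3% of all genes with a promoter, silent ones included. One pair is made of members only: Mrps11 and Mrpl46 start 42 bases apart on mouse chromosome 7, with this stretch between the starts, written on the Mrps11 strand.
Mrps11 and Mrpl46 (chr7:78783090-78783130, + strand): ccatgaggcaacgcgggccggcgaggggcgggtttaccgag

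Mrps11 had 43.3 FPKM in Hb9 control and 36.2 FPKM in A2 SMA MNs (-0.26), and Mrpl46 had 37.9 and 36.3 FPKM (-0.06). Their entries in the table span the same interval, so the division of reads between them is uncertain. A ratio for both genes was had for 23 of the 25 members, in 22 distinct pairs, since Mrps11 and Mrpl46 are each counted as member and as partner. Counted this way, the partner was higher by at least 1.5-fold for 1 member and lower for 3, with a median of -0.03 over partners and -0.01 over the members, beside 12.6% and 35.2% of all genes past that limit. After centring, 2 partners were higher and 2 lower, and the medians were 0.25 and 0.28, so their direction turned. The higher partner before centring, 2610507I01Rik, reached the minimum of 1 FPKM in A2 SMA MNs alone. Mrps12 faces Sars2, the mitochondrial seryl-tRNA synthetase, 147 bases away, and both were slightly above 0 (0.13 and 0.21). Mrps18b faces Ppp1r10 (0.77 and 0.39), and Mrpl14 faces Tmem63b (-0.85 and -0.52). The loci of both members overlap other entries, 3 for Mrps18b and 2 for Mrpl14, so the division of reads is uncertain there too. Mrps5, by contrast, had a ratio of 0.34 beside -1.37 for its neighbour Zfp661.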

How the data were processed

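RNA of FACS-sorted MNs (3 samples per genotype) was sequenced by the authors as single-end TruSeq libraries. Per the study's methods and the labels, reads were checked with FastQC 0.10.1, trimmed with cutadapt and mapped with TopHat2 2.04 to NCBI m37 with Ensembl annotation, and Cufflinks and Cuffdiff estimated expression. The versions of the other tools are not given in the sources used here. The deposited values are FPKM per locus, pooled by the authors over the samples of a genotype. Other deposited columns hold the authors' own fold change, test statistic, p-value, q-value and call, and these were not used. The status column served only to mark failed estimates (4 members, 5.26%, and 13.9% of genes above the minimum). The table gives no counts, so the reads behind a value are unknown. The study's read totals per library were not used here.

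Symbols were split at commas, and the entry of highest FPKM was kept for each. Log2 ratios were taken without a pseudocount where either genotype reached 1 FPKM and neither was at 0, with Python 3.11.15, pandas 2.3.3 and numpy 2.4.6. The ratio step and the count of higher genes were tested on control FPKM values with increases of known size planted. The filter was not tested in this way, and the count of lower genes only where no gene was lower. The members, lists and limits were chosen with earlier results of these data known. Genes named were the 8 members of highest mean FPKM, the 8 highest and 8 lowest ratios, the 3 S18 paralogs, members of set roles (Mrpl10, Mrpl11, Mrpl12, Mrps12, Mrpl32, Mrpl44, Mrpl45, Mrps27, Mrps22, Mrps34), of each list at most 3 abundant genes and at most the highest and lowest ratio, and Smn1. Other genes were named after their values were seen, for a small count past the limit, a shared locus, a copy or a neighbouring start, or as regulators tied to a motif searched. Table starts count from 0 and were raised by 1. Promoters and neighbouring starts were taken from RefSeq GRCm38.p6 without conversion of coordinates. In all, 12 alternatives were run.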

Additional observations from a re-analysis of the deposited data

How the results depend on the processing

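No paired analysis was possible because the table holds 1 pooled value per genotype, and for the same reason no sample could be left out. Scaling decided the direction of the family. Centred on the median gene, the members' median log2 ratio was 0.24, with 60 above 0, 11 higher and 2 lower by at least 1.5-fold. Under upper quartile scaling (the quartiles differ by a log2 ratio of -0.33) these values were 0.29, 61, 13 and 2. With a 2-fold limit 1 was higher and 1 lower. Under the other alternatives (pseudocounts of 0.1 and 1 FPKM, no filter, a filter of 5 FPKM, failed estimates left out, loci with 1 symbol, entries of a symbol summed, and, chosen after seeing the data, loci of at most 100 kb and at least 10 FPKM in both genotypes) the median and the counts kept their direction and stayed within 1.5 times, the lower count being 4 at its lowest: Mrpl23 and Mrps21 lost the call with a pseudocount of 1 FPKM, and Mrpl23 and Mrps33 did not pass the minimum of 5 FPKM or of 10 FPKM in both. With no read counts per gene and no values of single samples in the table, the error of each value was not estimated, also for the low Mrps33 and Mrpl23.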
